A study of Rattus norvegicus with 6 samples.

Results

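Integrins are the receptors by which fibroblasts hold on to the matrix, and the counts of 10 integrin subunit genes were followed in neonatal rat cardiac fibroblasts (NRCFs). The genes were Itga1, Itga3, Itga4, Itga5, Itga8, Itga11, Itgav, Itgb1, Itgb3 and Itgb5, found by their symbols among 21857 listed symbols, of which 25 are integrin subunits. NRCFs are primary cells from the hearts of healthy rats taken within 3 days of birth. The design text calls the rats Sprague-Dawley, whereas the strain label reads Noway. There were 6 libraries in 2 groups. The 3 Vector libraries, with the genotype label WT, came from cells given the empty plasmid. The 3 libraries labelled FTO overexpression came from cells given a plasmid with the coding sequence of rat FTO, an enzyme that takes the N6-methyladenosine mark off RNA. The study collected the cells after a transient transfection, and no source states whether the replicates were separate cultures, so p-values measure the spread between these libraries only.

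Each integrin is a pair of an alpha and a beta subunit, and both are needed for the receptor to reach the cell surface. The alpha subunit largely sets the ligand. α1 and α11 with β1 bind collagens, α3β1 binds laminins, α5β1 binds fibronectin, α4β1 binds VCAM1 and a variant stretch of fibronectin, and α8β1 binds nephronectin and other RGD proteins. αv pairs with β1, β3, β5 or further β subunits and binds vitronectin and other RGD ligands, among them the latent form of TGF-β. In the heart, these receptors anchor fibroblasts, carry tension to the cytoskeleton and take part in releasing TGF-β during scar formation.

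Depth ranged from 13178952 to 17857999 counts per library, and a floor of 3 counts was worth 0.168 to 0.227 CPM. Fto, the gene on the plasmid, was at 87.8, 89.6 and 87.4 CPM in Vector replicates 1, 2 and 3 and at 93.2, 90.8 and 92.9 CPM in the libraries labelled FTO. Its log2 fold change was 0.06 (adjusted p = 0.239), so a rise of the targeted mRNA was not detected, and every direction given here is that of the libraries as labelled. Among the marker genes, the summed level of 8 fibroblast genes was 14619 to 14709 CPM in Vector and 11988 to 12362 CPM in the libraries labelled FTO. That of 9 macrophage genes was 689.6 to 710.0 CPM in Vector and 201 to 225 CPM in the libraries labelled FTO. For 7 cardiomyocyte genes it was 1444 to 1467 CPM in Vector and 2058 to 2077 CPM in the libraries labelled FTO, so heart muscle transcripts were present in both groups. The 7 mural genes summed to 697 to 732 CPM in Vector and 706 to 734 CPM in the libraries labelled FTO, and the 7 endothelial genes to 24.5 to 25.0 CPM in Vector and 53.4 to 55.9 CPM in the libraries labelled FTO. The endothelial gene Emcn had no count in Vector, and no other marker was at 0 in a whole group. Of the fibroblast genes 4 were higher and 4 lower, of the macrophage genes 8 were lower and 1 higher, and of the cardiomyocyte genes 6 were higher. The fibroblast sum joins large opposite changes. Its gene Dcn rose from a mean of 47.0 to 5611 CPM, and Col3a1 fell from 10699 to 3338 CPM. Of the 6 mural genes tested 3 were higher and 3 lower, and of the 5 endothelial genes tested 4 were higher. The part of these cell types in the integrin results was not tested. In bulk libraries, fewer cells of a type and less RNA per cell cannot be told apart.

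All 10 subunits differed between the groups, 8 of them lower and 2 higher in the libraries labelled FTO. The largest falls were those of Itga11, Itga4 and Itga8, and the genes that rose were Itga3 and Itga5. Each of the 10 passed the edgeR test at an adjusted p of 0.05, against 65.9% of all 12941 genes tested (33.2% higher and 32.8% lower). The threshold used in the study asks for a 2-fold change in either direction and an unadjusted p-value under 0.05. It was met by 8 of the 10, against 19.6% of all genes. In all 10 the CPM ranges of both groups were apart, which held for 70.3% of all genes. The median log2 fold change of the 10 was -1.43, and that of all genes was 0.00. The median size of change, whatever its direction, was 1.43 for the 10 and 0.36 for all genes. Itga1 and Itgb1 are among the collagen-related genes that the study picked on these samples, so their falls are not independent evidence. All 10 were chosen with earlier results of these data known. Their counts and medians beside those of all genes are thus not independent evidence either. All 10 passed the filter on low counts, with means from 418 counts per library for Itga4 to 48081 for Itgb1. Transcript lengths were not at hand, so levels are compared between groups within a gene and not between genes.

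**Figure D1:**
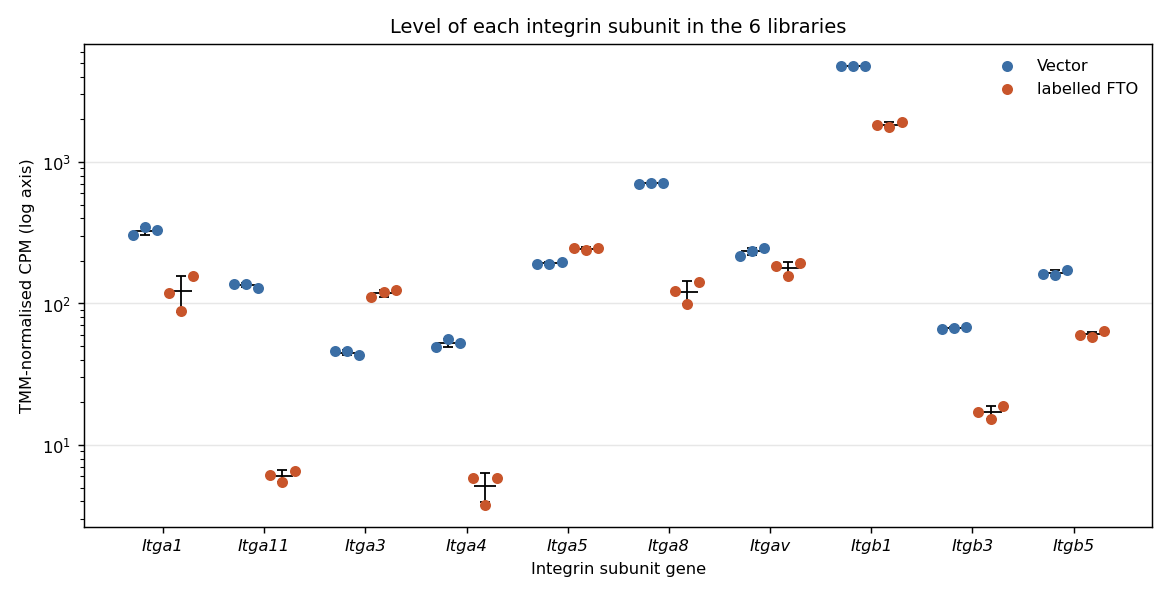
TMM-normalised CPM (log axis) of the 10 integrin subunit genes in each of the 6 libraries. Points are libraries, and bars show the mean ± SD of 3 libraries per group. Vector points lie above the points labelled FTO for 8 genes and below them for Itga3 and Itga5.

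The collagen-binding subunits among the 10, Itga1 and Itga11, fell by very different amounts. Itga11, which encodes the α11 subunit of mesenchymal cells that binds fibrillar collagen, was at 136, 137 and 129.6 CPM in Vector replicates 1, 2 and 3. In the libraries labelled FTO it was at 6.10, 5.44 and 6.59 CPM. These libraries lay 22.0-fold lower by the fit, with a log2 fold change of -4.46 (SE 0.0741, 95% confidence interval -4.62 to -4.30, adjusted p = 1.5e-16) by edgeR. It was the largest change among the 10 subunits. Itga1, whose α1 subunit binds collagen IV as well as fibrillar collagen, was at 305, 345 and 330.0 CPM in Vector. The libraries labelled FTO, at 119.5, 88.5 and 157 CPM, spread more widely than for any other subunit relative to their mean. All 3 still lay below the lowest Vector library, with a log2 fold change of -1.42 (SE 0.131, 95% confidence interval -1.70 to -1.13, adjusted p = 1.6e-07). Without FTO replicate 2 or FTO replicate 3, the values ran from -1.23 to -1.65 on the log2 scale, and Itga1 passed in both cases.

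Itga3 went the other way. It encodes the α3 subunit of a laminin receptor and was at 45.9, 46.0 and 43.0 CPM in Vector. The libraries labelled FTO were at 111, 121 and 124 CPM, each above every Vector library. The rise was 2.64-fold, with a log2 fold change of 1.40 (SE 0.0581, 95% confidence interval 1.27 to 1.52, adjusted p = 9.3e-12). It was the only one of the 10 subunits to pass the threshold of the study in the upward direction.

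The subunits of the fibronectin and VCAM1 receptors split. Itga5, the α subunit of the main fibronectin receptor, was at 191, 189 and 198 CPM in Vector and at 248, 238 and 246 CPM in the libraries labelled FTO. The groups did not overlap although the rise was small, 1.27-fold, with a log2 fold change of 0.34 (SE 0.0417, 95% confidence interval 0.25 to 0.43, adjusted p = 3.4e-06). Itga4, the α subunit of the VCAM1 receptor, was at 49.6, 56.4 and 52.3 CPM in Vector. It fell to 5.82, 3.78 and 5.86 CPM, which is 10.1-fold lower by the fit, with a log2 fold change of -3.33 (SE 0.116, 95% confidence interval -3.58 to -3.09, adjusted p = 9.7e-13). α4 is common on leukocytes as well as on immature mesenchyme, and its fall stood beside the lower summed level of the macrophage genes given above. Itga8, the α subunit of an RGD receptor of smooth muscle and fibroblasts, was at 702, 711 and 711 CPM in Vector, within a narrow range. The libraries labelled FTO were at 123, 99.0 and 142 CPM, with replicate 2 lowest and replicate 3 highest. This was a 5.81-fold fall, with a log2 fold change of -2.54 (SE 0.0879, 95% confidence interval -2.73 to -2.35, adjusted p = 9.5e-13). Among the mural genes, the smooth muscle genes Myh11 and Cnn1 were 11.5-fold and 11.9-fold lower and Cspg4 changed by -1.41 on the log2 scale. Des, Kcnj8 and Abcc9 of the same list rose by 2.45, 4.89 and 2.45, and their part in the fall of Itga8 was not tested.

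Among the genes of αv integrins that are part of the 10, the α subunit moved least. Itgav was at 218, 236 and 246 CPM in Vector and at 183, 155 and 194 CPM in the libraries labelled FTO. The highest of the latter was below the lowest Vector library, and the fit gave a log2 fold change of -0.39 (SE 0.0688, 95% confidence interval -0.54 to -0.25, adjusted p = 1.3e-04). The β partners of αv among the 10 fell further. Itgb3, the β subunit of the vitronectin receptor αvβ3, was at 65.8, 66.8 and 67.8 CPM in Vector. It was at 17.0, 15.3 and 18.8 CPM in the libraries labelled FTO, a 3.90-fold fall with a log2 fold change of -1.96 (SE 0.0735, 95% confidence interval -2.12 to -1.81, adjusted p = 2.6e-12). Itgb5, which pairs only with αv, was at 161, 159 and 174 CPM in Vector and at 59.6, 58.2 and 63.6 CPM in the libraries labelled FTO. That was a 2.71-fold fall, with a log2 fold change of -1.44 (SE 0.0540, 95% confidence interval -1.56 to -1.32, adjusted p = 2.7e-12). Both β genes thus fell more than 2-fold, without overlap between the groups. Itgb1, the common partner of the other α subunits, was at 4755, 4765 and 4768 CPM in Vector. It was at 1838, 1767 and 1901 CPM in the libraries labelled FTO, with a log2 fold change of -1.38 (SE 0.0392, 95% confidence interval -1.46 to -1.29, adjusted p = 9.1e-14). In the same fit, the 5 genes whose course over the 6 libraries, set against their Vector mean, was closest to that of Itgb1, out of 10041 others with at least 100 counts on average, were Nuak1, Pde7a, Akap12, Serpinh1 and Msr1. Their distances were 0.0538 to 0.111 on the log2 scale, summed over the libraries as a Euclidean distance, with log2 fold changes from -1.43 to -1.33.

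**Figure D2:**
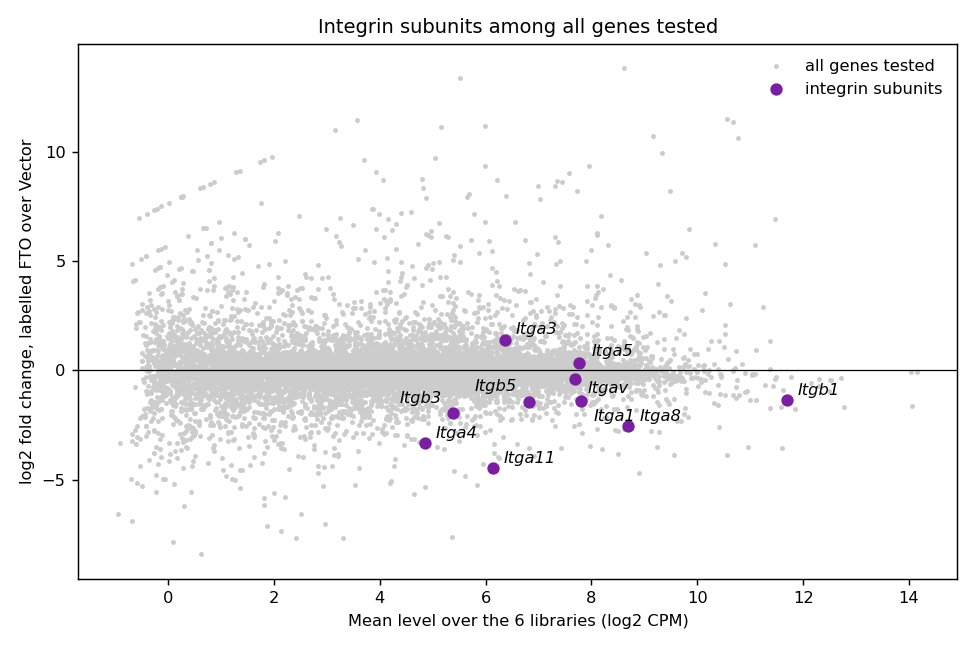
log2 fold change (libraries labelled FTO over Vector) against the mean level in log2 CPM for all 12941 genes tested (grey) and the 10 integrin subunits (purple). Of the 10, 8 lie below the zero line, Itga11 lowest at -4.46, and Itgb1 has the most reads.

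The promoters of the genes that rose are shown with that of Itgb1, the common β partner, which fell. Each is the 250 bases before the gene start in the RefSeq annotation of the build GRCr8, read 5′ to 3′ on the strand of the gene, and 9 of the 10 subunits had an entry in the table used. The study's processing used the build rn6, so these coordinates belong to GRCr8 alone. Capitals mark matches on either strand to motifs of 6 factors or boxes. The SP1 motif searched was GGGCGG. That of TEAD factors was GGAATG. That of AP-1 was TGACTCA. The TATA box was searched as TATAAA, and the CArG box and the NF-κB site are given by name alone. Itgb1 lies on the plus strand at chr19:73602027-73602276, Itga5 on the minus strand at chr7:136381306-136381555 and Itga3 on the minus strand at chr10:80518902-80519151.
Itgb1: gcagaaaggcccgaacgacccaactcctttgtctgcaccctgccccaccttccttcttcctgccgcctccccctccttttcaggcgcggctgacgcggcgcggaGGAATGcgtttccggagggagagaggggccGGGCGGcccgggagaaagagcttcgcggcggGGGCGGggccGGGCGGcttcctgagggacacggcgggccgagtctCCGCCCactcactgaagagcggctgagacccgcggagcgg
Itga5: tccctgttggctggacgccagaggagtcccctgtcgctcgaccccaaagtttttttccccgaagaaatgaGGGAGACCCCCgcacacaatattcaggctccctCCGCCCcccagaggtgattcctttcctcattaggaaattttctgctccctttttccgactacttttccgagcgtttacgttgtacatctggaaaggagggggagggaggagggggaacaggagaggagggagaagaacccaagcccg
Itga3: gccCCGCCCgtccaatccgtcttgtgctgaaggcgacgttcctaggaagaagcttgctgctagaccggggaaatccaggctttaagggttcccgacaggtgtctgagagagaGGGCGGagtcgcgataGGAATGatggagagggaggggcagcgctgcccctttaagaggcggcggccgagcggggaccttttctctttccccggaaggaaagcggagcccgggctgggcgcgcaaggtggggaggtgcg

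The Itgb1 window held 4 SP1 matches and 1 TEAD match, and its GC content was 71.2%, beside a median of 51.2% over all promoters. The SP1 motif holds only G and C, so the share of all windows given below is not matched for GC content. Itga3 held 2 SP1 matches and 1 TEAD match. Itga5 held 1 SP1 match and 2 NF-κB matches that overlap each other. No other of the 9 windows held an NF-κB match. Of the further subunits, Itgav held 2 SP1 matches and Itga11 held 1, and Itga1, Itga4, Itga8 and Itgb5 held no match to any of these motifs. Among all 33469 promoter windows of this length, 30.5% held an SP1 match, 12.1% a TEAD match, 3.54% an NF-κB match, 4.05% an AP-1 match, 12.9% a TATA box and 1.5% a CArG box. The TEAD motif occurred in a gene that fell and in a gene that rose. These matches describe letters in a window and not binding.

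To ask whether the partners of a pair changed by the same amount, the log2 ratio of α to β counts was taken in each library. Gene length cancels in the change of such a ratio. Of 9 known pairs, 8 had ratios that did not overlap between the groups and passed limma at an adjusted p of 0.05. In the same test 95.0% of all genes differed from Itgb1 in their change, 96.9% from Itgb3 and 95.3% from Itgb5, so passing is what most genes did and the sizes matter more than the calls. The spread of the β subunit itself enters the ratio of every gene, so the limma p-values can be too small, and those of the 8 are not printed. Differences, SEs and intervals of the pairs given below are from the limma fit unless stated, so these SEs can be too small too. A further test set the difference of both edgeR changes over their combined errors, and was chosen after the data had been seen. It also passed 8 of the 9, with adjusted p-values from 1.3e-14 to 1.1e-08. That test takes the errors of α and β as independent, although both genes were read in the same libraries. Its SEs ran from 0.0572 for Itga5 to 0.137 for Itga1, both over Itgb1, beside 0.0473 and 0.122 by limma. Only for Itga4 was its SE the smaller one. The exact two-sided permutation test gave 0.1 for each of the 8, the smallest value that 3 against 3 libraries allow, and 0.113 after adjustment over the 9 pairs.

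Relative to Itgb1, Itga3, Itga5 and Itgav gained. The log2 ratio of Itga3 to Itgb1 was -6.69, -6.69 and -6.79 in Vector and -4.05, -3.87 and -3.94 in the libraries labelled FTO. The difference was 2.77 (SE 0.0633), the largest gain of the 9 pairs. Itga5 gained 1.72 (SE 0.0473) over Itgb1, with ratios of -4.64, -4.66 and -4.59 in Vector and -2.89, -2.89 and -2.95 in the libraries labelled FTO. Itgav gained 0.98 (SE 0.0630) over Itgb1. It also gained 1.58 (SE 0.0852) over Itgb3 and 1.04 (SE 0.0762) over Itgb5. These 3 β genes all fell further than Itgav did. Ratios to Itgb6 and Itgb8, other partners of αv, were not taken, and Itgb8 rose.

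Relative to the same β subunit, Itga11, Itga4 and Itga8 lost. The ratio of Itga11 to Itgb1 changed by -3.10 (SE 0.0785), from a Vector mean of -5.15 to -8.24 on the log2 scale. For Itga4 the change was -2.00 (SE 0.134) and for Itga8 it was -1.18 (SE 0.0772). Itga1 was the exception among the pairs, with ratios of -3.96, -3.79 and -3.85 in Vector and -3.94, -4.32 and -3.60 in the libraries labelled FTO. These overlapped, and the difference of -0.08 (SE 0.122) had a 95% confidence interval from -0.34 to 0.18 and an exact permutation p-value of 0.8. The pair depended on single libraries. Without FTO replicate 2 the difference was 0.10, and without FTO replicate 3 it was -0.26 and passed limma (adjusted p = 0.00604). As stated above, limma p-values of such ratios can be too small. By the combined errors of edgeR the difference over all libraries was -0.04, with an interval from -0.33 to 0.25 (adjusted p = 0.782). A difference between Itga1 and Itgb1 in their change was thus not shown, whereas Itga11, the other collagen-binding subunit of the 10, fell further than Itgb1.

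**Figure D3:**
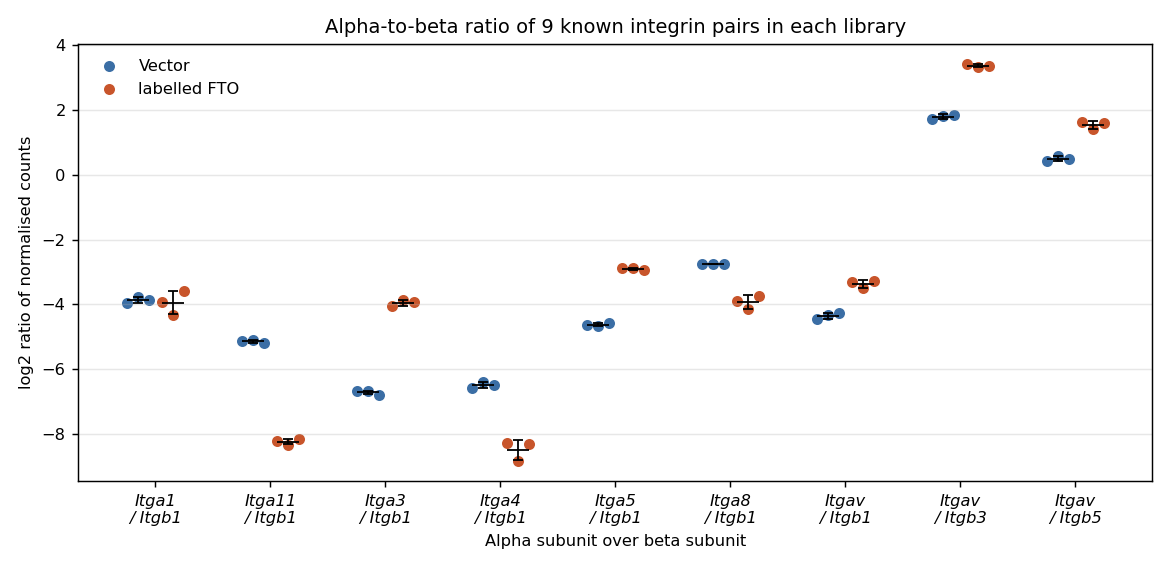
log2 ratio of normalised α to β counts for 9 known integrin pairs. Points are the 6 libraries and bars show the mean ± SD of 3 per group. The groups are apart in 8 pairs and overlap for Itga1 over Itgb1, and the height of a ratio depends on gene length while its change does not.

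Of the 10 genes, 7 encode α subunits that pair with β1, and the shares of their reads shifted. Other β1 partners, Itga2, Itga6, Itga7, Itga9 and Itga10, are not part of these shares. The reads of the 7 genes summed to 1693 ± 40.0 CPM in Vector and to 794 ± 82.6 CPM in the libraries labelled FTO. Itga8 went from 41.8 ± 0.668% to 15.2 ± 1.17% of these reads (mean ± SD, 3 libraries per group). Itga11 went from 7.95 ± 0.345% to 0.761 ± 0.00742%, and Itga4 from 3.11 ± 0.141% to 0.644 ± 0.102%. In the other direction, Itga5 went from 11.4 ± 0.360% to 30.9 ± 2.73%, Itga3 from 2.66 ± 0.138% to 15.0 ± 1.69% and Itgav from 13.8 ± 0.575% to 22.3 ± 0.610%. Itga1 went from 19.3 ± 0.777% to 15.1 ± 2.75%, with 18.0% in FTO replicate 3 against 18.5% in the lowest Vector library. These are shares of reads and not of molecules, because longer transcripts yield more reads.

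**Figure D4:**
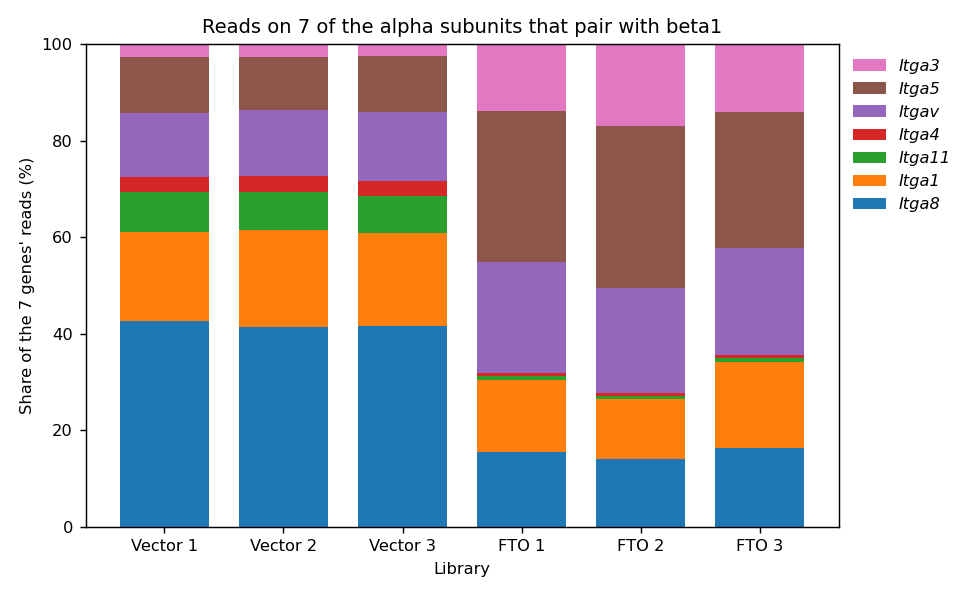
Share of reads (%) among 7 of the α subunit genes that pair with β1, stacked for each of the 6 libraries. Itga8 holds 41.3% to 42.6% in Vector and 13.9% to 16.3% in the libraries labelled FTO, where Itga5 holds 28.1% to 33.5%.

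The rest of the integrin family was listed to place the 10 subunits. Of 16 further genes, 15 were read from the files (Itgam is not analysed here) and 13 passed the filter on low counts, with Itga10 and Itgb7 below it. Of the 13, 4 were higher, 6 lower and 3 did not pass, with a median log2 fold change of -0.53, beside the 33.2% higher and 32.8% lower of all genes. Itga6, a laminin receptor subunit like Itga3, fell from 77.7 ± 4.03 to 10.7 ± 2.05 CPM, a change of -2.88. Another laminin subunit, Itga7 of muscle, rose from 42.4 ± 2.84 to 75.8 ± 8.45 CPM, a change of 0.83. So the laminin-binding subunits went both ways. Itgb8, which pairs with αv and also binds latent TGF-β, rose from 6.89 ± 1.28 to 36.9 ± 8.40 CPM (2.42), while Itgb6, the other such partner, was at 2.39 ± 0.303 and 2.69 ± 0.0884 CPM and did not pass (adjusted p-value 0.484). Itga9 fell by 1.44 on the log2 scale. The collagen receptor subunit Itga2 rose by 1.29 on the log2 scale, from only 2.63, 3.62 and 2.63 CPM in Vector. Itga2b, the platelet subunit, had 4, 1 and 9 counts in Vector and 48, 50 and 75 in the libraries labelled FTO, so that its change of 3.51 rests on few reads.

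The leukocyte integrins formed a further group. Itgb2, the β subunit of leukocytes, fell from 85.1 ± 4.16 to 33.2 ± 2.97 CPM, a change of -1.36. Its α partners Itgal, Itgax and Itgad changed by -1.38, -1.73 and -1.38. Itgad and Itgax are neighbouring genes of like sequence, and the reference lists Itgax as a former name of Itgad, so the split of reads between them is uncertain. Itgae did not pass, with a log2 fold change of -0.17 (adjusted p-value 0.377). Itgb4, which is not a leukocyte subunit, did not pass either, with a change of -0.53 (adjusted p-value 0.132). Of 9 macrophage genes, 8 were also lower and Adgre1 was higher.

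**Figure D5:**
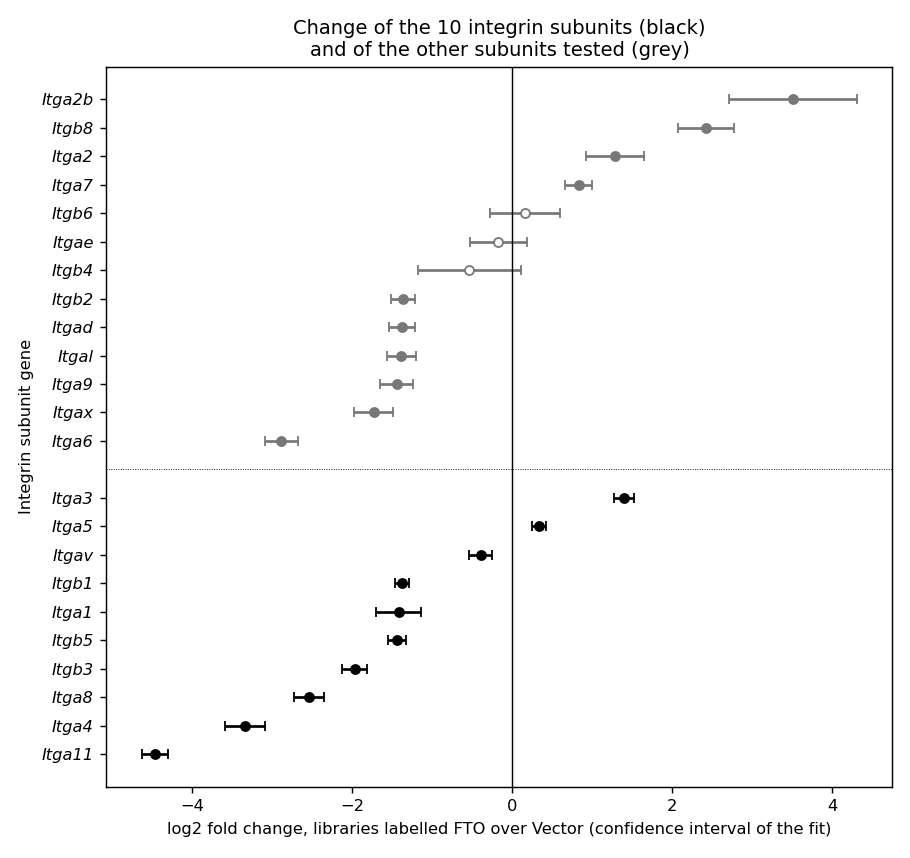
log2 fold change with its 95% confidence interval, libraries labelled FTO over Vector, for the 10 integrin subunits (black) and 13 other subunits that passed the filter on low counts (grey). Filled points passed an adjusted p-value of 0.05, and the open points Itgb6, Itgae and Itgb4 did not.

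Among the listed integrin adaptors and kinases, more genes were lower than higher. Of 34 listed genes, 33 were tested, 20 were lower, 8 higher and 5 did not pass, with a median log2 fold change of -0.47. Over all genes tested, 32.8% were lower and 33.2% higher. Among genes with a mean of at least 100 counts, the largest falls were those of Parvg, a parvin of blood cells, Vcl (vinculin) and Tns1 (tensin). Parvg met that mean through Vector, with 299, 361 and 350 counts there. The libraries labelled FTO had 19, 10 and 19, so its low level rests on few reads. Parvg went from 23.4 ± 1.36 to 1.05 ± 0.289 CPM (-4.46), Vcl from 1305 ± 9.50 to 264 ± 17.6 CPM (-2.30) and Tns1 from 550.3 ± 19.7 to 162 ± 32.3 CPM (-1.76). The largest rises were those of the kinases Ptk2b (1.24) and Fyn (0.94) and of Dok1 (0.77), whose product competes with talin for the β tail.

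The ligands moved both ways too. Of 29 listed genes, 28 were tested, 20 were lower, 6 higher and 2 did not pass, with a median of -0.73, again beside 32.8% lower and 33.2% higher among all genes tested. Vitronectin (Vtn) was below the filter, with 1 count in all 6 libraries together. Vcam1, the ligand of α4β1, rose from 5.44 ± 0.853 to 322 ± 30.7 CPM (5.88), while Itga4 fell. The laminin chains Lama4 and Lamb1 rose from 225 ± 4.54 to 648 ± 49.3 CPM (1.53) and from 795 ± 4.03 to 1568 ± 96.5 CPM (0.98), and Lama5 rose by 0.77. The other 3 laminin chains listed, Lama2, Lamb2 and Lamc1, were lower, with log2 fold changes of -0.57, -0.22 and -0.22, and the groups overlapped for Lamc1. These 4 were named after their values were seen, and laminin chains went both ways. Among ligands with a mean of at least 100 counts, the largest falls were those of Tgfb3 (-4.69), Ctgf (-3.52) and Tnc (-2.71). Npnt (nephronectin), the ligand of α8β1, was named after its values were seen. It had 20, 25 and 17 counts in Vector and 1, 0 and 4 in the libraries labelled FTO, so that its change of -3.62 (SE 0.542) rests on few reads. Fibronectin (Fn1), also named after its values were seen because it is the ligand of α5β1, changed by -0.06 and did not pass (adjusted p-value 0.233).

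The libraries labelled FTO differed in a shared way across the subunits. In 9 of the 10 genes FTO replicate 3 was the highest of its group, and in 9 of the 10 FTO replicate 2 was the lowest. Over all genes tested, FTO replicate 3 was the highest of its group in 35.3% and FTO replicate 2 the lowest in 35.9%. In Vector, replicate 1 was the lowest in 6 of the 10 subunits and the highest in 0. Over all genes tested these shares were 33.7% and 36.6%. Relative to their means, the spread within the libraries labelled FTO was widest for Itga1, Itga4 and Itga8. Leaving out any 1 of the 6 libraries left all 10 calls and directions as they were.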

How the data were processed

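RNA-seq counts of 6 libraries of NRCFs were used, 3 per group. Genotype labels gave the groups, and titles the replicate numbers. What the authors deposited were raw counts per gene, as whole numbers. Per the labels, reads were trimmed with Trimmomatic and the build was rn6. Aligner, counting program, annotation and strand setting are not given in the sources used here, so reads shared with overlapping, antisense or near-identical genes are uncertain. Total counts were 13746050, 14916702, 14494904, 14271013, 13178952, 17857999 in Vector and FTO replicates 1 to 3 in that order. Floors reflect counting error alone.

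Genes were kept with filterByExpr of edgeR (minimum count 10), which left 12941 genes, and scaled by TMM. The comparison used edgeR 4.0.16 (glmQLFTest, quasi-likelihood, two-sided) in R 4.3.3, with Benjamini-Hochberg adjustment over all genes tested. SEs of single genes were derived as the size of the log2 fold change over the square root of the edgeR F statistic. Their confidence intervals used these SEs and a t distribution. Values are TMM-normalised CPM. Ratios of an α to a β gene (prior count 0.5) were tested with limma 3.58.1 over all genes and by an exact permutation test. The members and the lists were chosen with earlier results of these data known. The genes named were the 10 subunits, Fto, the 5 nearest to Itgb1, any other subunit, and the 3 largest rises and falls of the adaptor and ligand lists that passed edgeR, did not overlap and averaged 100 counts or more. Alternatives were DESeq2 1.42.0, limma-voom, other scalings and filters, the replicate number as a block and leaving out each library. The planned levels per length were not computed, as transcript lengths were not at hand. The procedure was tested on simulated counts in which Itgb1 and most genes were unchanged. The simulation thus differs from these data and does not cover ratios to a β gene that falls.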

Additional observations from a re-analysis of the deposited data

How the results depend on the processing

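All 10 subunits passed under each of the 14 alternatives of test, scaling, filter, block and left-out library, with their directions, and 8 of the 10 passed at the threshold of the study. The log2 fold change of Itgav ran from -0.47 to -0.30 and that of Itga5 from 0.29 to 0.36, the nearest to 0 of the 10. Upper quartile scaling moved the median log2 fold change of all genes to -0.0472, the most of any scaling. Fto did not pass in any alternative. Of the 9 pairs, 9 passed without FTO replicate 3 and 8 under each other alternative. The ratio of Itga1 to Itgb1 ran from -0.26 to 0.10 when single libraries were left out. The other subunits passing numbered 10 or 11, the adaptors 26 to 29 and the ligands 26 or 27. Of 74 listed genes outside the 10, 7 changed their call or sign in some alternative. Among genes that did not pass, the Tln2 log2 fold change turned to -0.0145 with upper quartile scaling. When single libraries were left out, that of Tln2 ran from -0.0971 to 0.110, that of Itgb1bp1 from -0.133 to 0.00589 and that of Col13a1 from -0.283 to 0.234. Zyx, Rab21, Fn1 and Tns3 crossed the threshold in some alternatives. The cause was not tested.

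Replicate numbers did not pair the libraries, since the correlation over genes of each library's distance from its group mean was 0.00129, -0.102 and 0.0569 for equal numbers and from -0.155 to 0.15 for unequal ones. With the replicate block all 10 subunits and 8 of the 9 pairs passed. Depth limits Itga2b, Itgb4 and Itgb6 and the genes under the filter, Itga10 and Itgb7.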
